A study of Saccharomyces cerevisiae with 6 samples.

Results

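Stationary phase and hydrophilin genes were described as a set of 10 among the 6572 features listed for the yeast strain BY4741. The set holds GRE1 (YPL223C), SIP18 (YMR175W), HSP12 (YFL014W), SPG1 (YGR236C), SPG4 (YMR107W), SPG5 (YMR191W), DDR2 (YOL052C-A), TMA10 (YLR327C), STF2 (YGR008C) and YGP1 (YNL160W). The genes are listed by name but were chosen for their levels, with their read counts in these same libraries already known. Their levels are therefore given as a description, with no test. Each of the 10 was found in the files, and each exceeded 10 CPM (counts scaled to a library total of 1000000 reads) on average. BY4741, a laboratory haploid derived from S288C, carries complete deletions of LEU2, URA3 and MET17 and a partial one of HIS3. Its cells had spent 6 h in a medium that the labels call ILM and, per the labels, were harvested in the middle of exponential growth, after which the pellets were frozen. mRNA was sequenced in 3 BY4741 libraries, and 3 further libraries came from S. boulardii Biocodex, a probiotic yeast, under the same label for time and medium.

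Counted reads numbered 18707708 in BY4741 replicate 1, 5181546 in replicate 2 and 4581414 in replicate 3. The deleted genes LEU2, URA3 and MET17 had 0 reads in each of them. A count of 3 reads, taken here as an approximate upper limit, would be 0.160, 0.579 and 0.655 CPM in replicates 1, 2 and 3. The Biocodex tables list 5482 features under identifiers of another kind, 0 of them shared with BY4741, so the 10 genes were not analysed in Biocodex. What follows is therefore a description of 1 strain in 1 condition, with replicate libraries as the only axis of variation. Separate cultures are not named in the labels, so the spread between libraries may be technical. In bulk samples of this kind, fewer cells expressing a gene and less of its RNA per cell cannot be told apart.

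Hydrophilins are small, glycine-rich and strongly hydrophilic proteins that yeast makes in quantity when water is scarce, and several of them help cells survive drying and rewetting. Genes named for stationary phase encode proteins that cells need once nutrients run out and division stops, above all to withstand heat in that state. Many genes of both kinds are switched on by the transcription factors Msn2 and Msn4, which bind stress response elements in promoters and are held back by protein kinase A while glucose is plentiful.

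The name of the set was checked against the encoded proteins, translated from the S288C reference R64. A glycine content over 6% together with a mean Kyte-Doolittle hydropathy under -1 (a scale on which negative values are hydrophilic) was met by GRE1, SIP18, HSP12, SPG4, TMA10 and STF2, or 6 of 10. Among all 6002 nuclear-encoded proteins it was met by 75, or 1.25%, and among those shorter than 150 residues by 2.87%. Glycine content and hydrophilicity are what the word hydrophilin describes, so this contrast is a description and no test. SPG1, SPG5, DDR2 and YGP1 did not meet it, so they are stress and stationary phase genes in this set but not hydrophilins by composition. The coding sequences of the 2 hydrophilin paralog pairs are shown because they carry this composition, with glycine codons in capitals. For GRE1 the first 300 of 507 bases are printed, with 12 of its 22 glycine codons, and the others are complete. They were read from R64, in which GRE1 lies at chrXVI:128839-129138 (stretch shown, minus strand), SIP18 at chrXIII:611016-611255 (plus), TMA10 at chrXII:783127-783387 (minus) and STF2 at chrVII:508110-508364 (minus). All are coding exon sequence, and the build used by the authors is not given in the sources used here.
GRE1: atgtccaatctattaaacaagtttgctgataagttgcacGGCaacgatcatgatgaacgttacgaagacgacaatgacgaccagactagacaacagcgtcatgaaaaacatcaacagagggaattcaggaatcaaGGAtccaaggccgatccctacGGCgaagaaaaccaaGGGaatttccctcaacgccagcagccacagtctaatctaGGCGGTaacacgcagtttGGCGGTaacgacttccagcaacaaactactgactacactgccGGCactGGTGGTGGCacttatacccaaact
SIP18: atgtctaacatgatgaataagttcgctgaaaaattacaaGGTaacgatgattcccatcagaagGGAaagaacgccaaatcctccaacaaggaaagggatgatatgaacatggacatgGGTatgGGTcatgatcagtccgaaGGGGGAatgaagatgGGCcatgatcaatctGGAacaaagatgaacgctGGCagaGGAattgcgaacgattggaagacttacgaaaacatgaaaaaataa
TMA10: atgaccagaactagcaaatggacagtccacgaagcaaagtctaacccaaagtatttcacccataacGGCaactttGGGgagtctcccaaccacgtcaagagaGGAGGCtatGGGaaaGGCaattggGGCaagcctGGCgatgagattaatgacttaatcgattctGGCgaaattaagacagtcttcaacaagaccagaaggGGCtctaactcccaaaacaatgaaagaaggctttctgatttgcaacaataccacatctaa
STF2: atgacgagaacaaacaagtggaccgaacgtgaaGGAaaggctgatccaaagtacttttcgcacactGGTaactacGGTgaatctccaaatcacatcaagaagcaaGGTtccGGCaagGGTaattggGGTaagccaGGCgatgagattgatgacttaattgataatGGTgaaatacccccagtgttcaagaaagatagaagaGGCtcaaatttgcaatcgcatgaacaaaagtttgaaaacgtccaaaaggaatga

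SIP18, TMA10 and STF2 each hold 10 glycine codons. The Gre1 protein has 168 residues with 13.1% glycine and a hydropathy of -1.85, which only 0.0500% of yeast proteins undercut. Its paralog Sip18, a phospholipid-binding protein, has 79 residues, 12.7% glycine and a hydropathy of -1.55. Tma10 and Stf2 have 86 and 84 residues, 11.6% and 11.9% glycine, and hydropathies of -1.37 and -1.61. Hsp12, which binds and protects the plasma membrane, has 109 residues, 11.9% glycine and a hydropathy of -1.21. Spg4 lies just inside both limits, with 6.96% glycine and a hydropathy of -1.17. At the other end, Ddr2 has 61 residues, of which 9.84% are glycine, but a hydropathy of 0.76, above 99.2% of proteins. Spg5 and the secreted glycoprotein Ygp1 are long by comparison, at 373 and 354 residues, and have 4.56% and 5.08% glycine. Cysteine is absent from 8 of the 10 proteins, compared with 9.58% of all proteins and 30.9% of those under 150 residues. The plot of glycine against hydropathy shows the 6 proteins gathered in the sparse lower right corner.

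**Figure D1:**
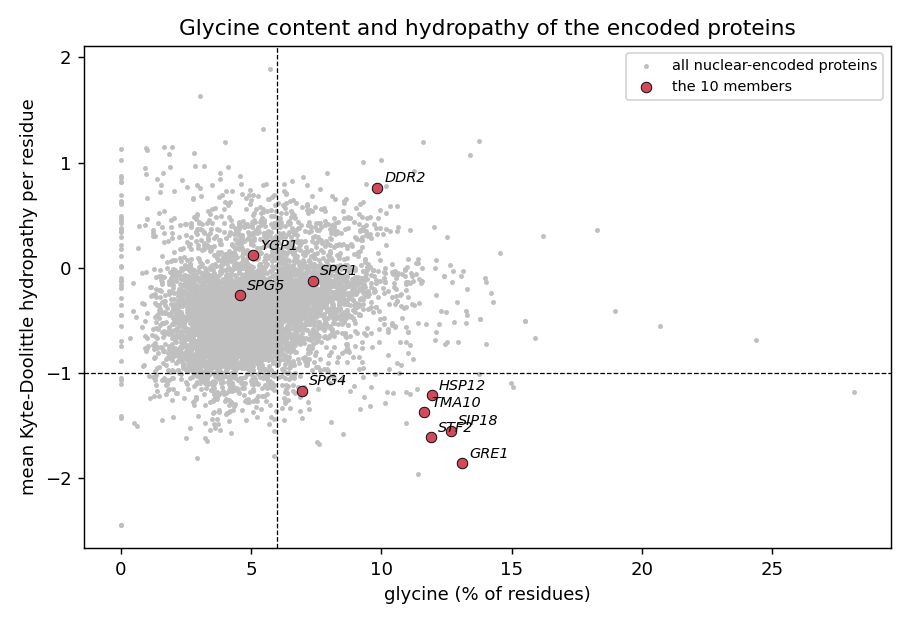
Glycine content (% of residues, horizontal) against mean Kyte-Doolittle hydropathy per residue (vertical) for all 6002 nuclear-encoded proteins of the reference (grey) and the proteins of the 10 genes (red). Dashed lines mark 6% glycine and a hydropathy of -1, and GRE1, SIP18, HSP12, SPG4, TMA10 and STF2 lie in the lower right field, which holds 75 proteins.

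Paralogs within the set were similar in protein and distinct in DNA. Gre1 and Sip18 shared 36.7% of 79 aligned residues, and Tma10 and Stf2 shared 64.3% of 84. Ddr2 shared 45.8% of 59 with Hor7, a small protein induced by high osmolarity, and Ygp1 51.8% of 305 with Sps100, a spore wall protein. No member shared a 50-base stretch with any other coding sequence (0 shared stretches for each gene), so no long stretch of identical sequence joins a member to another gene. None of the 10 overlapped another coding gene of the reference, the smallest gap being the 58 bases between SIP18 and YMR175W-A, which had at most 4.33 CPM. Whether a counted feature missing from the reference overlaps a member was not checked. Each member is a single coding part without an intron, and the 10 lie on 7 chromosomes.

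The promoters were searched for the stress response element, AGGGG or, on the other strand, CCCCT, because this is the site of Msn2 and Msn4. In the window from 250 bases before to 50 after the start codon, 3 of 10 members held it, compared with 21.6% of 6007 promoters. At least 2 copies were found in HSP12 and DDR2, or 2 of 10, compared with 2.96% of promoters. From 500 bases before the start, a window added after the first result was seen, 6 of 10 held it, compared with 36.4%. HSP12 then had 5 copies, DDR2 4, SIP18 and STF2 2 each, and TMA10 and YGP1 1 each. At least 2 copies were thus found in 4 of 10, compared with 9.14% of promoters. The motif TATAAA, also counted on both strands and able to share its last A with AGGGG, lay in the shorter window of 9 of 10 members, all but TMA10, compared with 45.2% of promoters. AGGGAT, the core of the element active after the diauxic shift, was counted on both strands and cannot fill the same place as AGGGG. It lay in 3 of 10, SIP18, STF2 and YGP1, compared with 9.34%. TMA10, the paralog of STF2, held no stress element in the shorter window and 1 in the longer one. Shorter windows of the 3 genes with the stress element there are shown with it in capitals, together with that of TMA10. They lie in R64 at chrVI:107006-107305 (plus strand) for HSP12, chrXV:231706-232005 (minus) for DDR2, chrVII:508315-508614 (minus) for STF2 and chrXII:783338-783637 (minus) for TMA10. The last 50 bases of each are coding, and the rest precede the start codon.
HSP12: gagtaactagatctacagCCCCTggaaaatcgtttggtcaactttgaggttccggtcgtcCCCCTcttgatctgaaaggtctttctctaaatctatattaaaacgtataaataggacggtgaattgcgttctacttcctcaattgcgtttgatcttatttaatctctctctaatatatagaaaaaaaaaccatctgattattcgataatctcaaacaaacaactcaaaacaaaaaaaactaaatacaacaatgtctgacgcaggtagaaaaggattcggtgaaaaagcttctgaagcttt
DDR2: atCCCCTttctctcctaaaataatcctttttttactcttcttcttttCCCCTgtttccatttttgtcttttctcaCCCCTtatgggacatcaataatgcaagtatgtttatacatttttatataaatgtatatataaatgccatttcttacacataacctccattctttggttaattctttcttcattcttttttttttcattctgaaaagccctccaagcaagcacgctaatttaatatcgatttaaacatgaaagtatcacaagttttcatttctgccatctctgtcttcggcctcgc
STF2: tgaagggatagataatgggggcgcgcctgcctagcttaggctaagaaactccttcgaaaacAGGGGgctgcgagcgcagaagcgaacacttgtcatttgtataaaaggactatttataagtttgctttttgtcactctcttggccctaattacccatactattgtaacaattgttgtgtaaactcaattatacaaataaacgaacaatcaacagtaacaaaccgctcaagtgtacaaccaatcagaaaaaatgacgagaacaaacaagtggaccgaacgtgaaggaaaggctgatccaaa
TMA10: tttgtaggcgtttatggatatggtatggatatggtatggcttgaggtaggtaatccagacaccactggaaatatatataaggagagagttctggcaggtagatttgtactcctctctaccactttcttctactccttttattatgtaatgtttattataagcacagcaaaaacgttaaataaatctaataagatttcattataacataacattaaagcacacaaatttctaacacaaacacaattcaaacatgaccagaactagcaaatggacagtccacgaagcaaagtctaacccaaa

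Counted from the start codon, the capitals begin at -232 and -190 in HSP12, at -248, -203 and -175 in DDR2, and at -189 in STF2. A match describes these letters and does not show binding.

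Together the 10 genes took 2.68% of the counted reads in replicate 1, 2.36% in replicate 2 and 2.32% in replicate 3, or 2.46% ± 0.198 (SD, n = 3). The 95% Wilson intervals, which cover counting error only, were 2.67% to 2.69%, 2.35% to 2.38% and 2.31% to 2.33%. Per kb of coding length the share was higher, at 6.78% ± 0.324 (SD, n = 3) of TPM, because 7 of the 10 coding sequences are shorter than 400 bases, as are 11.4% of matched genes. How such short genes were affected by fragment length was not tested. The median level of the members was 1462 CPM, beside 60.5 CPM over the 5898 features that matched a reference gene. All 10 exceeded 100 CPM in every library, which 28.5% of matched genes did. This count restates how the genes were picked. TMA10 and GRE1 together made up 58.7%, 48.8% and 60.4% of the reads of the set in replicates 1, 2 and 3.

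The hydrophilin GRE1, needed in desiccation and controlled by the osmotic stress kinase Hog1, was measured at 7459, 3843 and 5332 CPM in replicates 1, 2 and 3. Replicate 1 was 1.94-fold above replicate 2, the second widest range of the set. Its paralog SIP18 stood at 1134, 731 and 845 CPM, with the same order of libraries. HSP12 had 2777, 3379 and 2411 CPM, highest in replicate 2. The means were 5545 ± 1817 CPM for GRE1, 903 ± 208 for SIP18 and 2856 ± 489 for HSP12 (SD, n = 3 each).

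TMA10, whose product associates with ribosomes, was the most even of the 10, with 8273, 7688 and 8678 CPM. Its spread on the log2 scale, an SD of 0.09, was lower than that of all but 9.49% of the 2023 matched genes with a mean of at least 100 CPM. Its paralog STF2, which acts in desiccation resistance and may modulate inhibition of the mitochondrial ATP synthase, varied more, with 1669, 1969 and 1258 CPM. STF2 was thus highest in replicate 2 and lowest in replicate 3. Of the genes for the inhibitors themselves, INH1 had 112, 199.9 and 90.8 CPM and STF1 478, 655 and 371 CPM. Both followed the order of libraries seen for STF2, which HSP12, SPG4, YGP1 and HOR7 showed too. The order is therefore not particular to these genes, and its share among all genes is not given here.

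SPG1, SPG4 and SPG5 encode proteins required to survive heat in stationary phase, and Spg5 also acts in proteasome assembly during quiescence. SPG1 had 1099, 1264 and 1189 CPM, a highest to lowest ratio of 1.15. SPG4 had 2055, 2236 and 1575 CPM and was lowest in replicate 3. SPG5 had 285, 297 and 355 CPM and was the lowest member in each library per kb. SPG3, a like-named gene outside the set, had 3.31, 2.70 and 27.7 CPM, far higher in replicate 3 than in the others. Since the members were chosen for their levels, its lower level is not read as a contrast with them.

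DDR2, a gene activated by many stresses, had 1540.4, 1180.0 and 1159 CPM, with replicate 1 above the other 2 libraries. YGP1, a secreted cell wall glycoprotein gene induced when nutrients limit growth, had 530.2, 1058 and 393 CPM. Replicate 2 was thus 2.69-fold above replicate 3, the widest range of the set, and the log2 SD of 0.73 exceeded that of 98.6% of the 2023 genes. Without replicate 2 the YGP1 mean fell from 661 to 462 CPM. Counting error of a single value ranged from 0.254% to 2.55% over the 10 genes and is small beside these spreads.

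Levels of different genes were compared per kb of coding length. TMA10 stood highest at 31467 ± 1907 CPM per kb, followed by GRE1 at 10936 ± 3584, HSP12 at 8653 ± 1481, DDR2 at 6951 ± 1153 and STF2 at 6400.0 ± 1400 (SD, n = 3 each). SPG4 followed at 5619.7 ± 981, SPG1 at 4111 ± 286, SIP18 at 3763 ± 866, YGP1 at 620.2 ± 329.8 and SPG5 at 278 ± 33.2 (SD, n = 3 each). Of the 9 pairs of neighbours in this order, the higher gene was higher in each library in 6. GRE1 and HSP12, DDR2 and STF2, and SPG1 and SIP18 changed places in 1 library each and do not differ beyond their spread. The ranges over libraries did not overlap for 4 pairs, TMA10 and GRE1, SPG4 and SPG1, SIP18 and YGP1, and YGP1 and SPG5. TMA10 exceeded GRE1 2.88-fold and SIP18 exceeded YGP1 6.07-fold by their means. Among the 5898 matched genes, 8 of the 10 ranked in the first 100 per kb, while YGP1 ranked 337 and SPG5 708. The genes were chosen for their levels, so these ranks are not a result about the set.

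**Figure D2:**
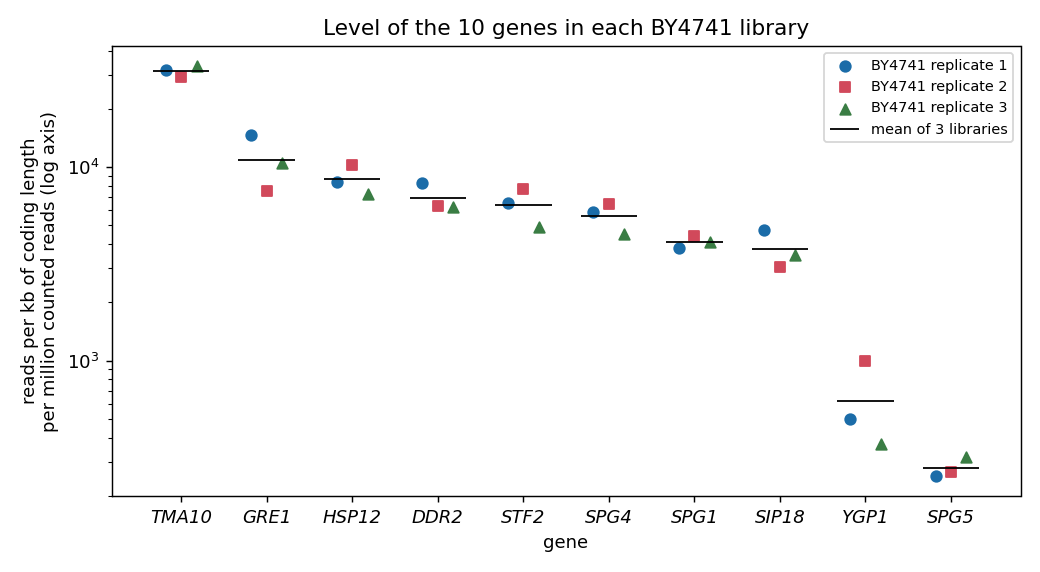
CPM per kb of coding length (vertical, log axis) of the 10 genes (horizontal, in order of the mean) in the 3 BY4741 libraries, with a line at each mean. TMA10 lies at 29456 or above in every library, and the points of YGP1 spread from 369 in replicate 3 to 994 in replicate 2.

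Members of a paralog pair differed in level to unlike degrees. GRE1 exceeded SIP18 per kb 3.11-fold, 2.49-fold and 2.99-fold in replicates 1, 2 and 3, with a log2 ratio of 1.51 ± 0.17 (SD, n = 3). By reads, not scaled for the longer GRE1, the log2 ratio was 2.59 ± 0.17 (SD, n = 3). TMA10 exceeded STF2 per kb 4.84-fold, 3.81-fold and 6.74-fold, with a log2 ratio of 2.32 ± 0.41 (SD, n = 3), and by 2.35 ± 0.41 (SD, n = 3) from reads. Both pairs kept their direction in 3 of 3 libraries.

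DDR2 lay below its partner HOR7 in 3 of 3 libraries, with a per-kb log2 ratio of -0.59 ± 0.26 (SD, n = 3), or -0.54 ± 0.26 (SD, n = 3) from reads. HOR7 had 1957, 2099 and 1581 CPM. It was highest in replicate 2, in which DDR2 was not raised.

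YGP1 and its partner SPS100 differed most in replicate 2. SPS100 had 769, 371 and 699.6 CPM, lowest in replicate 2, where YGP1 was highest, and both genes were lower in replicate 3 than in replicate 1. The per-kb ratio of YGP1 over SPS100 was 0.635, 2.63 and 0.518 in replicates 1, 2 and 3, so YGP1 was the lower gene in 2 libraries and the higher one in 1. The log2 ratio of -0.07 ± 1.28 (SD, n = 3) therefore gives no common direction, and without replicate 2 the log2 ratio from reads was -0.68, against 0.05 with it.

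**Figure D3:**
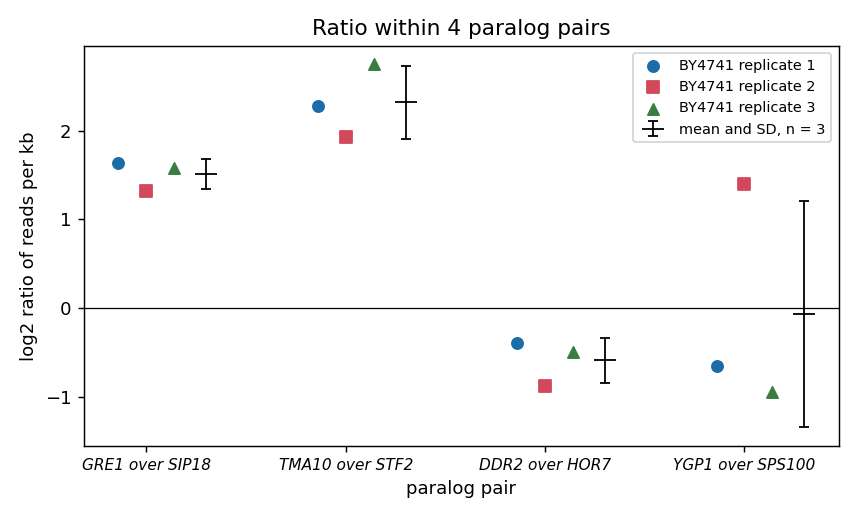
Log2 ratio of reads per kb (vertical) within 4 paralog pairs (horizontal) in each BY4741 library, with mean and SD (n = 3) at the right of each pair. GRE1 over SIP18 and TMA10 over STF2 lie above 0 and DDR2 over HOR7 below 0 in every library, while YGP1 over SPS100 lies above 0 in replicate 2 only.

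Between replicate libraries the 10 genes did not move as one group. For each library the log2 level, with an offset of 0.5 CPM, was set against the mean of the other 2 libraries, over the 5131 features that averaged 10 CPM or more. A deviation over 2-fold was called. In replicate 2 YGP1 was called higher, with a deviation of 1.21, so 1 of 10 members was called beside 4.87% of all genes. The other calls were 0 of 10 members in each case, beside 3.84% of genes higher and 2.75% lower in replicate 1, 7.76% lower in replicate 2, and 6.28% higher and 4.97% lower in replicate 3. These shares include genes of far lower level than any member and are not matched for level. The nearest to the limit among the rest were YGP1 in replicate 3, at -0.93, and GRE1, at 0.72 in replicate 1 and -0.71 in replicate 2.

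By the library in which they were highest, the members fell into 3 groups. GRE1, SIP18 and DDR2 were highest in replicate 1, so 3 of 10, beside 25.6% of genes. HSP12, SPG1, SPG4, STF2 and YGP1 were highest in replicate 2, so 5 of 10, beside 35.5%. SPG5 and TMA10 were highest in replicate 3, so 2 of 10, beside 38.8%. With 10 genes these counts are close to the background and are not read as a result about the set. Scaling by edgeR's TMM factors or by DESeq2's size factors changed the highest library of 0 members.

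The closest pair of patterns within the set was SPG4 and STF2, at a Euclidean distance of 0.11 between their log2 deviations over 3 libraries, followed by HSP12 and SPG4 at 0.14 and HSP12 and STF2 at 0.15. GRE1 lay 0.24 from its paralog SIP18, whereas TMA10 lay 0.58 from STF2. The farthest pair was GRE1 and YGP1, at 1.57. These distances are descriptions over 3 points and share the libraries' depth and scaling.

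**Figure D4:**
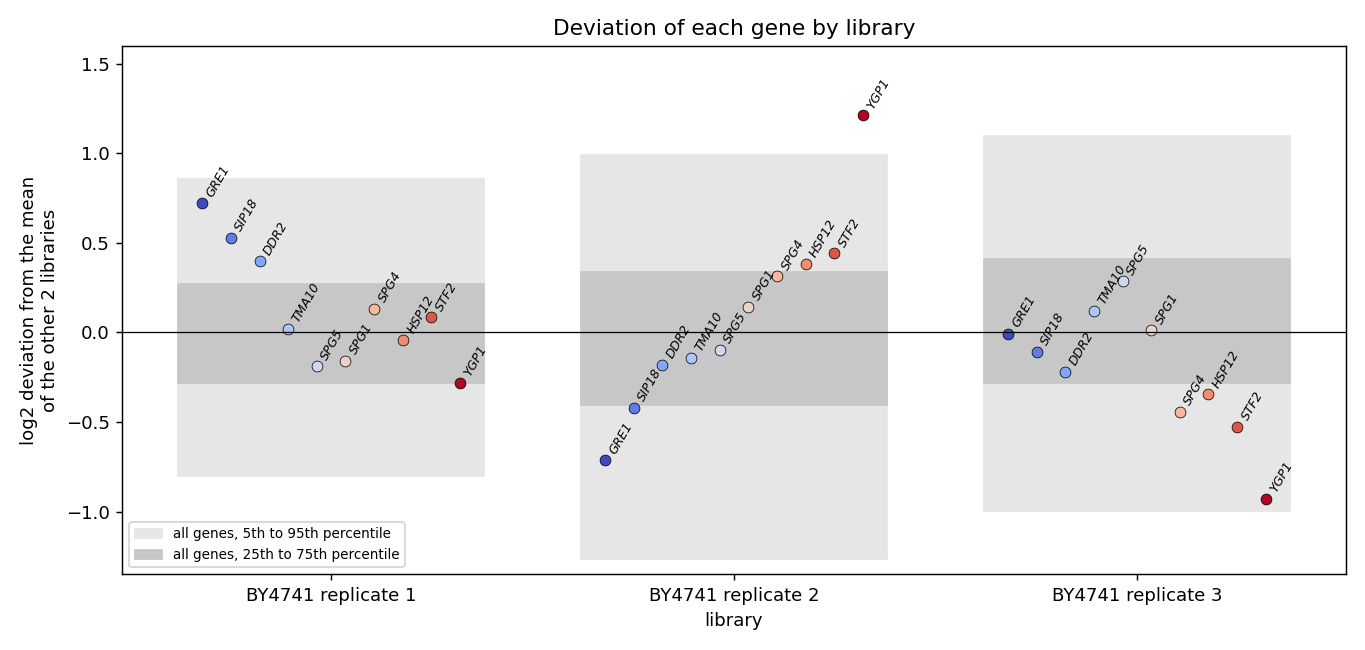
Log2 deviation of each of the 10 genes from the mean of the other 2 libraries (vertical) in each BY4741 library (horizontal), over grey bands for the 5131 features that averaged 10 CPM or more. Genes are placed from left to right by their deviation in replicate 2, from GRE1 at -0.71 to YGP1 at 1.21, and YGP1 in replicate 2 lies outside the 5th to 95th percentile band.

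Members above the mean of the other libraries numbered 6 of 10 in replicate 1, beside 49.6% of genes, 5 of 10 in replicate 2, beside 49.0%, and 3 of 10 in replicate 3, beside 55.0%. The median deviations were 0.05, 0.02 and -0.16, beside -0.01, -0.01 and 0.07 over all genes. Of the 30 single values, HSP12 in replicate 1 and SPG1 in replicate 3 changed sign with the scaling. Without replicate 2, replicate 1 lay above replicate 3 with a median of 0.40 over the members, beside -0.051 over all genes. Without replicate 3, replicate 1 lay below replicate 2, with a median of -0.09, beside -0.006 over all genes.

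Other genes moved between the same libraries. Of 36 genes listed as targets of Msn2 and Msn4, 31 lay above the mean of the other 2 libraries in replicate 2, beside 49.0% of all genes. Their median deviation was 0.36. They include the hexokinase gene HXK1, highest of the list at 6659 ± 553 CPM, and DDR48, lowest at 16.8 ± 9.04 CPM (SD, n = 3 each), whose repeat-rich sequence makes its count uncertain. Genes of cytosolic ribosomal proteins, selected by symbol, numbered 137, many of them near-identical pairs whose counts are uncertain. Of these 137, 3 lay above in replicate 2, beside 49.0% of all genes, with a median of -0.58. In replicate 1, 128 of them lay above, beside 49.6%, with a median of 0.30. The 3 deviations of a gene sum to 0, so values in different libraries are not separate observations. In replicate 2 the 10 members divided evenly around 0, beside 49.0% of all genes above it. GRE1 at -0.71, SIP18 at -0.42, DDR2 at -0.18, TMA10 at -0.14 and SPG5 at -0.10 lay below it. SPG1 at 0.14, SPG4 at 0.31, HSP12 at 0.39, STF2 at 0.44 and YGP1 at 1.21 lay above it. DDR2, TMA10, SPG5, SPG1 and SPG4 lay between the 25th and 75th percentiles of all genes, -0.41 and 0.34. The even split is close to the background and is not read as a result about the set. In replicate 3 the stress targets had a median of -0.23 with 6 of 36 above, beside 55.0% of all genes. The ribosomal protein genes had a median of 0.30 there. The part of these library differences in the values of the 10 genes was not tested. Medians of both lists kept their sign under the TMM and DESeq2 scalings in each library.

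**Figure D5:**
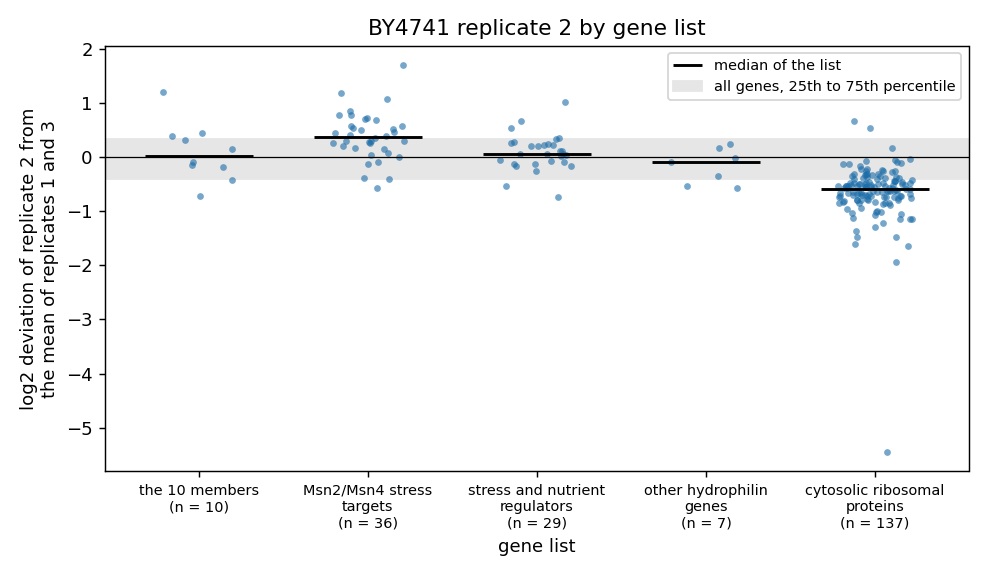
Log2 deviation of BY4741 replicate 2 from the mean of replicates 1 and 3 (vertical) for the genes of 5 lists (horizontal), with a bar at each median and a band for the 25th to 75th percentile of all genes. The 36 stress targets centre at 0.36 and the 137 ribosomal protein genes at -0.58, while the 10 members spread from -0.71 to 1.21.

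Genes of related roles ranged from SPG3 at 11.2 CPM to HXK1 at 6659 CPM by their means, and the lists were chosen with earlier results of these data known. Of 7 further hydrophilin genes, 5 exceeded 100 CPM in every library, beside the 28.5% of all matched genes. YNL190W, a cell wall hydrophilin, was the highest of them at 937 ± 86.9 CPM and GON7 the lowest at 87.1 ± 23.8 (SD, n = 3 each). Their median was 395 CPM. Of 12 further genes associated with stationary phase, 5 exceeded 100 CPM in every library, beside the same 28.5% of matched genes. Their median was 93.0 CPM, from the small heat shock protein gene HSP26 at 1845 ± 423 CPM to SPG3 at 11.2 ± 14.3 (SD, n = 3 each). With 12 genes this count is not read as a result about the list.

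Among 29 regulators of stress and nutrient responses, 19 exceeded 100 CPM in every library, beside 28.5% of all matched genes, and their median was 174 CPM. USV1, a zinc finger transcription factor gene, was highest at 982 ± 174 CPM and TPK3, a catalytic subunit of protein kinase A, lowest at 22.5 ± 14.8 (SD, n = 3 each). All 7 genes of trehalose synthesis and breakdown exceeded 100 CPM, from TPS3 at 167 ± 36.5 to TPS1 at 1565 ± 335 CPM (SD, n = 3 each). Of the 36 stress targets, 28 did so, with a median of 824 CPM. Both counts stand beside the same 28.5% of matched genes. Some genes, among them TPS1, are in both of these lists, and HSP26 and HOR7 are stress targets too. The lists are therefore not independent.

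The genes whose pattern over the 3 libraries was most like that of GRE1, among 2022 other matched genes of at least 100 CPM, were RPS19B, BOL2 and SND3, at distances of 0.04, 0.06 and 0.06. RPS19B encodes a ribosomal protein of the small subunit, BOL2 a repressor of the iron regulon, and SND3 a factor of protein targeting to the endoplasmic reticulum. RPS19B had 468, 246 and 328 CPM. For HSP12 the nearest were YBL113C, SNC1 and ADE3, at 0.002, 0.007 and 0.01. YBL113C belongs to a repeated subtelomeric element, so its count is uncertain, SNC1 encodes a membrane fusion protein of secretory vesicles and ADE3 an enzyme of one-carbon metabolism. With 3 libraries, near patterns arise easily among so many genes, and the likeness is given as a description.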

How the data were processed

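For each of the 6 libraries the authors deposited whole-number counts of reads by feature, not normalized and without a row for unassigned reads. HTSeq, TopHat, DESeq2 and FastQC are the tools listed in the submitters' processing notes, and their versions are not stated there. The genome build, the gene annotation and the strandedness of counting are not given in the sources, so whether reads of antisense neighbours were told apart is unknown. Per the labels' protocols, RNA came from the RiboPure-Yeast kit and libraries from a NuGEN mRNA kit. Titles of the samples gave the group and the replicate number. The deposited gene model file of Biocodex was not used.

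Counts were divided by library totals of 18707708, 5181546 and 4581414 reads and scaled to CPM. Symbols, coding lengths, coding sequences and promoter windows came from the RefSeq annotation of S288C R64, which 5898 of 6572 identifiers matched. Since that build may differ from the authors', coordinates are those of R64 alone. Protein values were computed from translated coding sequences, and pairs were aligned globally with BLOSUM62 (gap opening 11, extension 1). The design has 1 group with these genes, so no edgeR or DESeq2 test of genes was possible. Both tools served only for scaling factors. The computation of deviations was checked on simulated counts with known changes, which is no test of the genes. Genes outside the set were named by rule: paralog partners, the highest and lowest member of each list, and the 3 genes nearest in pattern to GRE1 and to HSP12. FMP45 and PDR5 in the closing section were named after their values were seen. The members and lists were chosen with earlier results of these data known. Software was Biopython 1.88, pandas 2.3.3 and SciPy 1.17.1 under Python 3.11.15, and DESeq2 1.42.0 and edgeR 4.0.16 under R 4.3.3.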

Additional observations from a re-analysis of the deposited data

How the results depend on the processing

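No paired analysis was possible because the 10 genes were read in 1 strain only, and the tables of the other strain share no identifiers with it. The summed share of 2.46% became 6.78% per kb of coding length, and without 1 library it ranged from 2.34% to 2.52%. The count of members past 2-fold, 1 of 10 beside 19.2% of all genes past it in any library, was 2 at a limit of 1.5-fold, beside 45.1%. It was 1 without replicate 1, beside 17.6%, and 0 without replicate 2 or 3, beside 10.3% and 11.1%. These shares cover genes down to a mean of 10 CPM and are not matched for level. Without that filter the share past 2-fold was 26.5%. Matched genes averaging at least 100 CPM had a median log2 SD of 0.235. The median of the members was 0.254, and 6 of the 10 lay above 0.235, so the set was not steadier than genes of that level. The median deviation of replicate 1 (0.05) ranged from -0.092 without replicate 3 to 0.40 without replicate 2, beside -0.006 and -0.051 over all genes. That of replicate 3 (-0.16) ranged from -0.40 without replicate 2 to -0.057 without replicate 1, beside 0.051 and 0.049 over all genes. Scaling each gene by length took the log2 ratio of GRE1 over SIP18 from 2.59 to 1.51 and that of YGP1 over SPS100 from 0.05 to -0.070. The latter ranged from -0.68 without replicate 2 to 0.49 without replicate 3. At 200 CPM the count of regulators fell from 19 to 10, and at 50 CPM that of the ATP synthase inhibitor genes went from 1 to 2. The shares of all genes at those limits are not given here, so these counts are not read further. Members with a stress element went from 3 to 6 with 500 bases, an alternative chosen after seeing the data. The other 52 alternatives of these results, and all 50 of the members' mean levels, moved by less than the spread between libraries or, for counts, by at most 1.5 times. Leaving out 1 of 3 libraries always moves a mean by less than the SD of the 3. For means, those alternatives could therefore not have moved further, and they are no sign of stability. The 3 libraries, of unequal depth, limit every spread given.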

Other observations

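The pattern of YGP1, the member that varied most between libraries, was shared closely by FMP45, a membrane protein gene required for sporulation. FMP45 had 483, 967 and 349.7 CPM in replicates 1, 2 and 3, beside 530.2, 1058 and 393 CPM for YGP1. The distance of their log2 deviations over the 3 libraries was 0.03, and the second nearest of 2022 genes, the drug transporter gene PDR5 with 334, 663 and 279 CPM, lay at 0.14. Both genes were named after their values were seen, and with 3 libraries the likeness is a description.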
